A study of Rattus norvegicus with 8 samples.

Results

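RNA-seq was used to compare 2 brain tissues, the prefrontal cortex (PFC) and the hippocampus, in adult rats. The animals were male and of the outbred Sprague-Dawley strain. All 8 libraries of the series belong to it, 4 from PFC and 4 from hippocampus. In each tissue there was 1 library from an unstressed control rat given saline, and 1 each from stressed rats (labelled CMS, for the chronic stress procedure) given saline, methylglyoxal (MGO) or luteolin. MGO is a reactive dicarbonyl that arises mainly in glycolysis, and luteolin is a plant flavonoid. Daily intraperitoneal drug injections filled the final 3 weeks of stress, and tissue was taken in week 7. The labels give MGO at 5 mM/kg/day in the design and at 100 mM/kg in the protocol, and luteolin at 10 mg/kg/day. The 2 libraries that share a treatment were compared as a pair. The protocol says that both tissues came from each rat it names, but it names no luteolin rat. Of the 31185 Ensembl gene IDs listed, the 12155 that averaged 1 FPKM or more across the 8 libraries were compared. FPKM counts the fragments of a gene, scaled by the length of its transcripts and by the mapped fragments of the library.

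The PFC is neocortex, built of layers whose pyramidal neurons project within the cortex and to deeper brain regions. It is known for working memory and for control over stress responses. The hippocampus is older cortex, in which the granule cells of the dentate gyrus and the pyramidal cells of the CA fields form a chain of excitatory synapses. It is known for memory formation and for feedback on stress hormones. Both tissues hold excitatory neurons, inhibitory interneurons, glia and blood vessels, so bulk RNA-seq of the pair compares related mixtures of cells. In bulk tissue, fewer cells of a type and less RNA per cell cannot be told apart. The deposited table names genes by Ensembl ID, and 0 of these IDs matched the RefSeq symbol table. The labelled tissues were therefore not checked against layer or hippocampal field markers, and genes are described here by abundance, size of difference and consistency, with 2 IDs named in each direction.

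Of the 12155 genes, 1937 (15.9%) differed between the tissues on the log2(FPKM + 1) scale (limma with treatment as a block, Benjamini-Hochberg adjusted p under 0.05), and these are called genes below. PFC was higher for 984 (8.10%) and hippocampus for 953 (7.84%). A difference on this scale is given as PFC minus hippocampus, averaged over the 4 pairs, and it understates the differences of low genes. The called genes had a median absolute difference of 0.73, against 0.26 over all 12155 genes. Called genes higher in PFC had a median of 0.75, and those higher in hippocampus 0.69. With 1 library per tissue and treatment, these p-values set the mean tissue difference against its variation between the 4 pairs. Treatment, rat and library cannot be told apart in that variation. The number called rests on all 4 pairs: it was 243 without the control pair, 499 without CMS + saline, 623 without CMS + MGO and 838 without CMS + luteolin. Each of these fits used fewer libraries. Genes with an unadjusted limma p under 0.05 numbered 4218 with all 4 pairs and 3128 to 3692 without a pair.

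**Figure D1:**
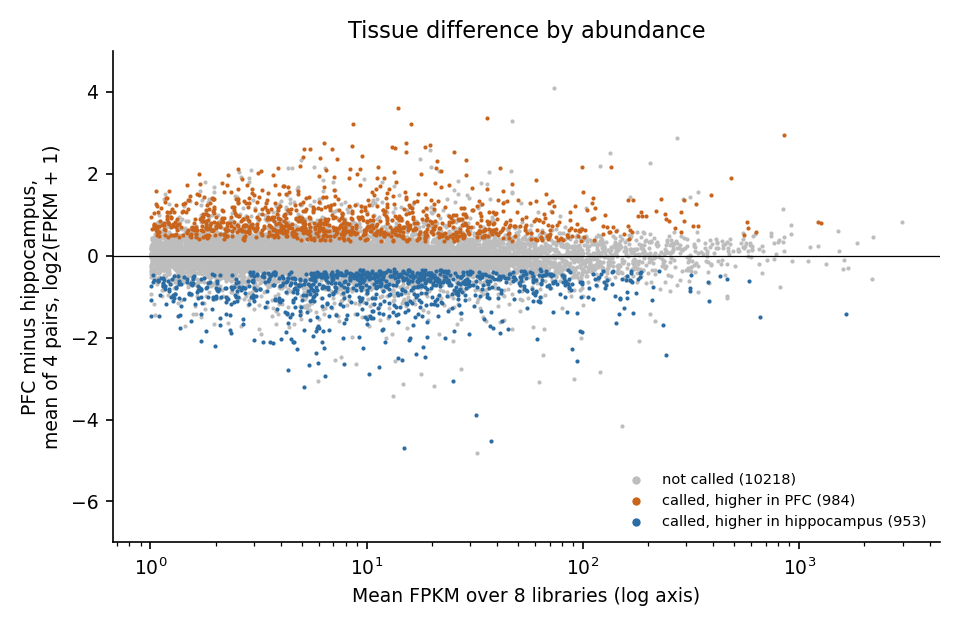
Each point is a gene, with its mean FPKM over 8 libraries on a log axis and its mean difference between PFC and hippocampus over 4 pairs in log2(FPKM + 1). Called genes (984 higher in PFC in orange, 953 higher in hippocampus in blue) lie on both sides at every abundance, and grey points among the largest differences are genes that were not called.

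The 2 called genes with the largest difference towards PFC were high in every PFC library and low in every hippocampus library. ENSRNOG00000026953 was at 28.2, 23.8, 33 and 21.5 FPKM in PFC (in the order control, then CMS with saline, MGO and luteolin, here and below). In hippocampus it was at 1.13, 1.09, 1.01 and 1.86 FPKM. The lowest PFC value was thus far above the highest hippocampus value, and the hippocampus library that was highest came from CMS + luteolin. The log2 difference was 3.60 (SE 0.20, limma adjusted p = 0.00359), and it ran from 2.98 to 4.08 over the 4 pairs. ENSRNOG00000015155 was at 65.6, 92.5, 40.8 and 67.6 FPKM in PFC. In hippocampus it was at 7.31, 5.85, 5.76 and 3.15 FPKM. The groups did not overlap, although PFC values varied more than 2-fold, with CMS + saline highest and CMS + MGO lowest. On the log2 scale it was 3.36 higher in PFC (SE 0.27, limma adjusted p = 0.00567), from 2.63 to 4.05 over the pairs.

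In the other direction, ENSRNOG00000004179 was close to the floor of the scale in PFC. Its values there were 0.0595, 0.0318, 0.257 and 0.355 FPKM. In hippocampus it was at 29.4, 27.1, 33 and 28.5 FPKM. The hippocampus libraries were close to each other, and the groups were 4.38 apart on the log2(FPKM + 1) scale from the highest PFC to the lowest hippocampus value. The difference was -4.70 (SE 0.10, limma adjusted p = 0.0013), with an SD of 0.18 over the 4 pairs. The scale compresses the spread of its low PFC values. ENSRNOG00000057703 was at 1.13, 2.2, 1.96 and 1.64 FPKM in PFC. In hippocampus it was at 44, 45.7, 42.6 and 162 FPKM, so the CMS + luteolin library stood well above the other 3, which were alike. The groups were 3.77 apart. The difference was -4.53 (SE 0.39, limma adjusted p = 0.00656), with an SD of 0.98 over the 4 pairs.

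**Figure D2:**
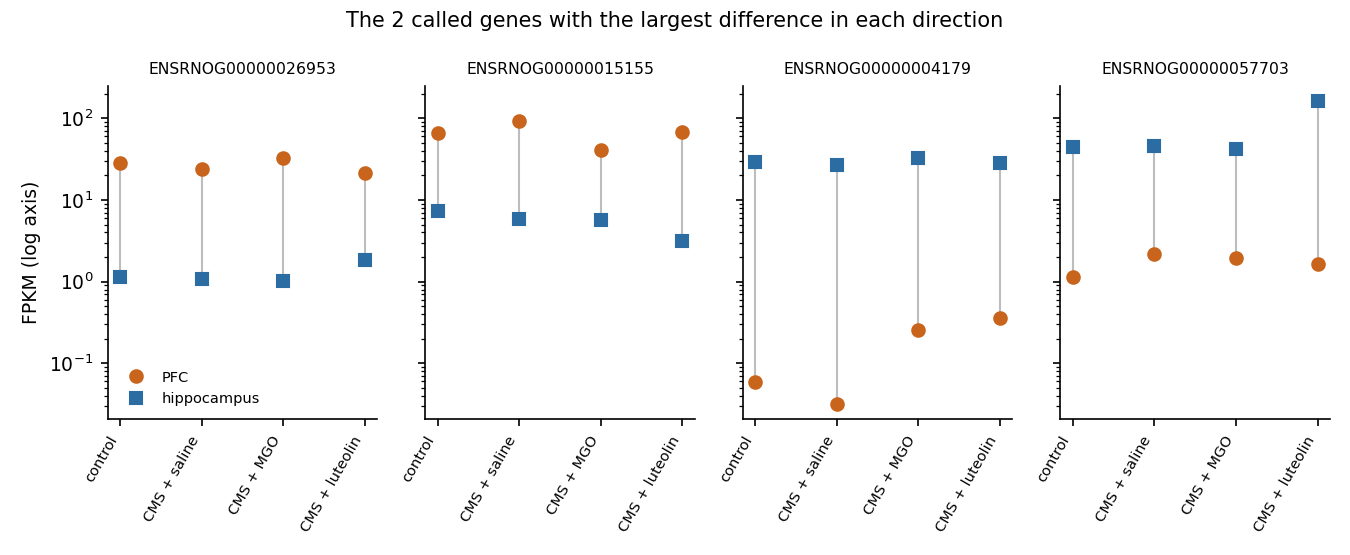
FPKM on a log axis for the 2 called genes with the largest difference in each direction, with PFC as circles and hippocampus as squares, joined within a treatment. The groups do not overlap in any of the 4 genes, and the hippocampus value of 162 FPKM for ENSRNOG00000057703 in CMS + luteolin stands apart.

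Such wide separations were rare. The 4 values of a tissue all lay at least 1 above the 4 of the other, on the log2(FPKM + 1) scale, for 86 genes in PFC and 86 in hippocampus. A gap of at least 2 was found for 8 genes in PFC and 11 in hippocampus. A gap of at least 3 was found for 0 genes in PFC and for 2 in hippocampus, the ENSRNOG00000004179 and ENSRNOG00000057703 described above. Most genes passed the 1 FPKM filter in both tissues: 11528 had a mean of at least 1 FPKM in each, 363 in PFC only and 264 in hippocampus only. Genes above the filter in a single tissue passed through the tissue where they were high. Of these, 127 of the 363 and 96 of the 264 were called, against 15.9% of all genes. They stay in the counts of called genes given here. ENSRNOG00000004179, with a PFC mean of 0.176 FPKM, is among them. At the filter itself, 189 genes had means of 0.9 to 1 FPKM and 196 had means of 1 to 1.1 FPKM.

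Called genes were found at every level of abundance, with a share of 14.2% in the class that held fewest and 19.5% in the class that held most. Genes were divided by mean FPKM into 5 classes. Of 2668 genes at 1 to under 3 FPKM, 380 (14.2%) were called, and of 4091 at 3 to under 10 FPKM, 606 (14.8%). Of 3311 genes at 10 to under 30 FPKM, 551 (16.6%) were called, and of 1513 at 30 to under 100 FPKM, 295 (19.5%). Of the 572 most abundant genes, at 100 FPKM and above, 105 (18.4%) were called. These shares stand beside the 15.9% over all genes. The classes from 3 to under 30 FPKM held most of the called genes, since they held most genes.

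The size of the difference was similar across the classes. The median absolute difference over all genes of a class went from 0.25 at 1 to under 3 FPKM to 0.30 at 100 FPKM and above. Among called genes it was largest in the lowest class, at 0.79, and smallest at 30 to under 100 FPKM, at 0.64. The SE of called genes was also largest in the lowest class, with a median of 0.13 against 0.097 at 30 to under 100 FPKM. The pseudocount of 1 compresses differences most in the lowest class. Called genes with a difference of at least 1 made up 31.1% of the called genes at 1 to under 3 FPKM, 21.7% at 30 to under 100 FPKM and 30.5% at 100 FPKM and above.

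The direction of the called genes differed between the low and the middle of the range. At 1 to under 3 FPKM, 236 called genes were higher in PFC and 144 in hippocampus, so PFC took 62.1%. At 3 to under 10 FPKM the counts were 319 and 287. At 10 to under 30 FPKM the balance lay with hippocampus, with 239 higher in PFC and 312 in hippocampus (43.4% in PFC). At 30 to under 100 FPKM they were 139 and 156, and at 100 FPKM and above 51 and 54. The difference in direction between classes was not tested. The PFC share of the lowest class was 63.6% with median-ratio size factors, and that of the 10 to under 30 FPKM class was 44.7%, but the most abundant class turned to 50 and 46. With no replicate block the class of 3 to under 10 FPKM turned to 349 higher in PFC and 383 in hippocampus, and the most abundant class to 64 and 61. Without the low-value filter that class held 38 and 35. The balance also rests on single pairs. Without the CMS + MGO pair the lowest class held 54 higher in PFC and 53 in hippocampus and the class of 3 to under 10 FPKM 86 and 100. Without the CMS + saline pair the 10 to under 30 FPKM class held 77 and 65. The class of 30 to under 100 FPKM turned to 20 and 18 without the control pair, to 32 and 27 without CMS + saline and to 77 and 73 without CMS + luteolin. The most abundant class turned to 10 and 9 without the control pair, to 18 and 14 without CMS + MGO and to 30 and 22 without CMS + luteolin.

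**Figure D3:**
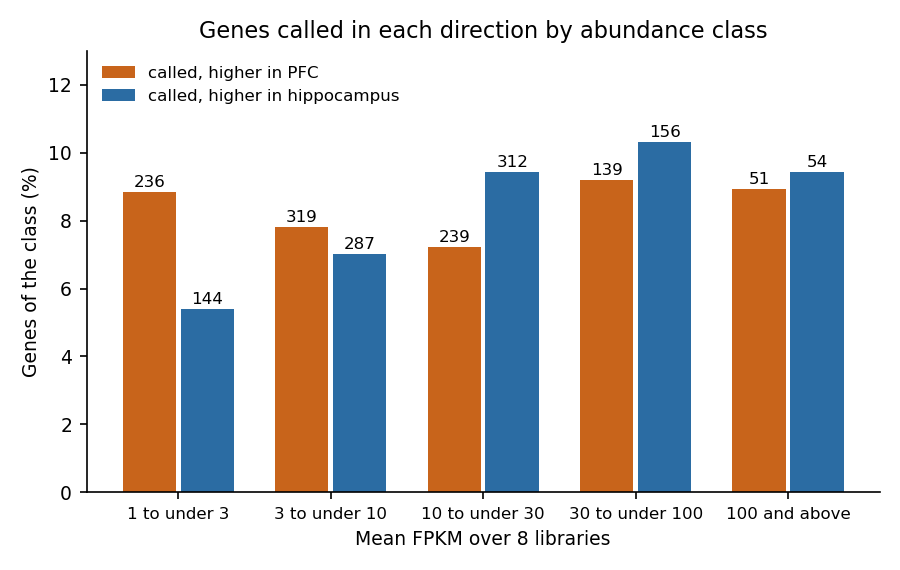
Share of the genes of each abundance class that were called higher in PFC (orange) or in hippocampus (blue), with the number of genes above each bar and mean FPKM classes on the x axis. PFC leads in the class of 1 to under 3 FPKM (236 against 144) and hippocampus in that of 10 to under 30 FPKM (312 against 239).

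The number of genes reaching a given level was then counted in each library, a comparison added after the data were seen. PFC libraries had 11858 to 12028 genes at 1 FPKM or more and hippocampus libraries 11619 to 11809. PFC had 11921 ± 76.3 and hippocampus 11733 ± 83.8 (SD, n = 4), a difference of 188 genes, with PFC higher in 4 of 4 pairs. The exact two-sided permutation test gave p = 0.0286, the smallest that 4 against 4 libraries allow, and 0.0571 after Benjamini-Hochberg adjustment over the 2 levels tested. By pairs the exact test gave p = 0.125, the smallest that 4 pairs allow. At 10 FPKM or more the order was the other way on average, with 5202 ± 112 genes in PFC and 5338 ± 123 in hippocampus (SD, n = 4). Hippocampus was higher in 3 of 4 pairs there (exact permutation test, p = 0.171, adjusted 0.171). With median-ratio size factors hippocampus was higher in 4 of 4 pairs at this level, with -102.5 genes as PFC minus hippocampus (exact permutation test, p = 0.0286, adjusted over the 2 levels 0.0286). By pairs this difference did not pass the threshold (exact test, p = 0.125).

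Relative depth, inferred from low FPKM values since depth in reads is not known, differed by tissue within pairs, but the tissue ranges overlapped. Ratios of low FPKM values between libraries gave the hippocampus library a greater relative depth than the PFC library in every pair. The factor was 1.17 in control, 1.2 in CMS + saline, 1.14 in CMS + MGO and 1.09 in CMS + luteolin. With control PFC at 1, relative depths were 0.855 to 1.24 in PFC and 1.03 to 1.34 in hippocampus. The CMS + luteolin library had the greatest relative depth in both tissues. The part of depth in the direction of the low classes was not tested. The tissues did not separate by total: FPKM sums were 314079 to 352740 for PFC libraries and 300281 to 337606 for hippocampus libraries. The 10 most abundant genes of a library took 5.30% to 7.02% of the sum in PFC and 4.45% to 7.04% in hippocampus.

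In terms of total signal, the called genes took a similar part of both tissues. They held 16.3% to 18.2% of the FPKM sum in PFC libraries and 16.7% to 18.1% in hippocampus libraries. Genes called higher in PFC held 10.4% to 12.1% of the sum in PFC and 5.67% to 6.09% in hippocampus. Those called higher in hippocampus held 10.8% to 12.1% there and 5.85% to 6.56% in PFC. These ranges describe genes that were chosen for their difference in the same libraries.

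Most tissue differences were small. The absolute difference was under 0.25 for 5926 genes (48.8%), 0.25 to under 0.5 for 3339 (27.5%) and 0.5 to under 1 for 2068 (17.0%). It was 1 to under 2 for 704 genes (5.79%) and at least 2 for 118 (0.971%). Differences under 0.5 leaned towards hippocampus, with 3268 genes higher there against 2658 in PFC under 0.25, and 1909 against 1430 at 0.25 to under 0.5. Over all genes the median difference was -0.040, and it was -0.027 with median-ratio size factors. With no filter on low values it was 0.0004, over 20167 genes. By abundance class the median was 0.034 at 1 to under 3 FPKM and 0.041 at 100 FPKM and above. It was -0.047 at 3 to under 10 FPKM, -0.087 at 10 to under 30 and -0.068 at 30 to under 100. Above 0.5 the directions were close to balanced, with 1039 genes higher in PFC and 1029 in hippocampus at 0.5 to under 1, 363 and 341 at 1 to under 2, and 57 and 61 at 2 and above.

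Called genes were therefore mostly of moderate size. Under 0.25, 0 genes were called by limma, while 151 had an unadjusted p under 0.05. That 0 depends on the settings: under 0.25 on each setting's own scale, 115 genes were called with a pseudocount of 5, 117 with no filter on low values and 3 with no replicate block. At 0.25 to under 0.5, 369 were called (11.1%). In that class called genes had a median SD over the 4 pairs of 0.12 and uncalled genes 0.27. The class of 0.5 to under 1 gave 1033 called genes, which is 53.3% of all those called. In it 50.0% of genes were called, and the share was 64.8% at 1 to under 2 and 66.9% at 2 and above. The share called thus levelled off well below all genes even for the largest differences.

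**Figure D4:**
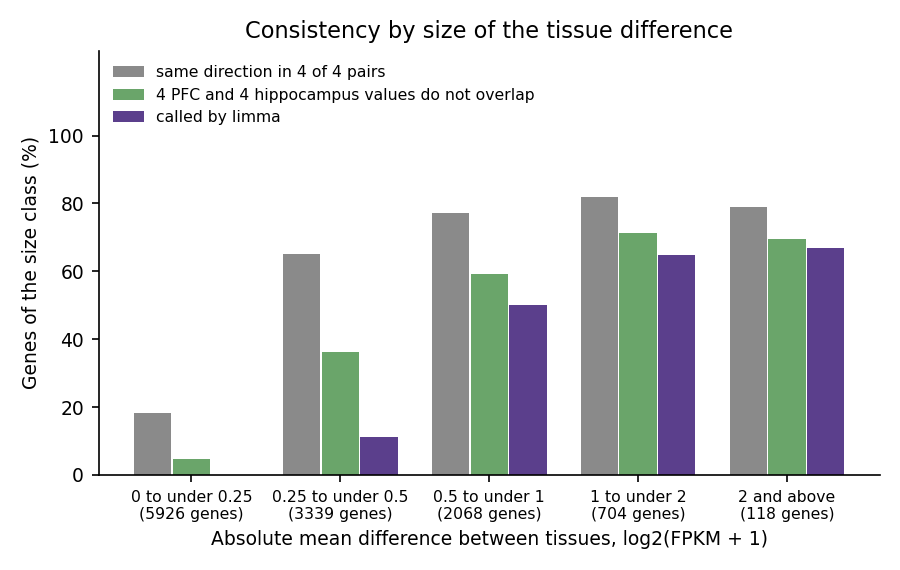
Share of genes in each class of absolute tissue difference in log2(FPKM + 1) that had the same direction in 4 of 4 pairs, that had no overlap between the 4 PFC and 4 hippocampus values, and that were called by limma. All 3 shares rise up to the class of 1 to under 2, with 82.0%, 71.2% and 64.8%, and stand at 78.8%, 69.5% and 66.9% in the class of 2 and above.

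The large differences that were not called varied strongly between pairs. A mean difference of at least 1 was reached by 822 genes (6.76%), of which 535 (4.40% of all genes) were called and 287 were not. The uncalled 287 comprised 133 higher in PFC and 154 higher in hippocampus. Their median SD over the 4 pairs was 1.42, against 0.32 for the called 535. Of the 287, 135 had the same direction in all 4 pairs. In 127 of them (44.3%) the 4 libraries of a single tissue already spanned at least 8-fold on the log2(FPKM + 1) scale, which was true of 0.561% of the called 535 and of 318 (2.62%) of all 12155 genes. The SD over pairs enters the limma test, so the contrast between called and uncalled genes is a description. Genes listed at 0 in at least 1 library numbered 229, and 8 of them (3.49%) were called.

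Direction was shared by all 4 pairs for 5527 genes (45.5%), 2469 higher in PFC and 3058 higher in hippocampus. PFC was higher in 3 pairs for 1898 genes, in 2 pairs for 2301 and in 1 pair for 2401. The 4 PFC and 4 hippocampus values did not overlap at all for 3287 genes (27.0%), 1441 (11.9%) with PFC higher and 1846 (15.2%) with hippocampus higher. Of the 1937 called genes, 1754 (90.6%) had no overlap, and in 183 the tissues overlapped although every pair ran the same way. Another 1533 genes without overlap were not called. Over all genes, separation of the values thus leaned towards hippocampus, also with median-ratio size factors (1515 with PFC higher and 1795 with hippocampus higher). The called genes were close to balanced. By class the lean was not uniform. PFC led at 1 to under 3 FPKM (367 against 280) and at 100 FPKM and above (90 against 84). Hippocampus led at 3 to under 10 FPKM (592 against 428), 10 to under 30 (634 against 344) and 30 to under 100 (256 against 212).

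Within single pairs, a difference of at least 1 was found for 1384 genes in control, 1166 in CMS + saline, 1335 in CMS + MGO and 1577 in CMS + luteolin. It was reached in exactly 1 pair by 1562 genes, in 2 pairs by 743, in 3 by 442 and in all 4 by 272. Of these 272, 118 were higher in PFC in every pair and 117 higher in hippocampus in every pair. The remaining 37 changed direction between pairs. A difference of at least 1 in every pair was therefore not always in the same direction.

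The pair left out of a fit gave a check whose values the limma fit did not use. The 1 FPKM filter still averaged all 8 libraries, the left-out pair included. Genes were called by limma from 3 pairs, and their direction was read in the fourth, which came from other libraries. Among 243 genes called without the control pair, 227 (93.4%) had the same direction in it. The share was 476 of 499 (95.4%) in CMS + saline, 594 of 623 (95.3%) in CMS + MGO and 802 of 838 (95.7%) in CMS + luteolin. Genes not called from the same 3 pairs kept direction in 73.8%, 74.1%, 67.6% and 68.9% of cases. A margin was also present among genes of similar size. The spread over the 3 pairs enters the call there, so this margin is a description. Of genes with a difference of at least 1 over 3 pairs, 92.9% to 96.0% of called and 70.8% to 77.8% of uncalled genes kept direction. At 0.5 to under 1 the ranges were 93.8% to 100.0% and 78.9% to 86.1%, the highest resting on 19 called genes without the control pair. Among uncalled genes, the share that kept direction was lower for those of at least 1 than for those of 0.5 to under 1 in each of the 4 pairs, a contrast that was not tested.

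The median difference of called genes was smaller in the left-out pair than over the other 3 for 3 of the 4 pairs. The median over called genes went from 1.55 over 3 pairs to 1.49 in the control pair, from 1.33 to 1.05 in CMS + saline and from 1.18 to 1.00 in CMS + MGO. In CMS + luteolin it went from 0.98 to 1.04. Of called genes with a difference of at least 1 over 3 pairs, 80.8% reached 1 in the left-out control pair, 62.6% in CMS + saline, 64.7% in CMS + MGO and 74.4% in CMS + luteolin.

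**Figure D5:**
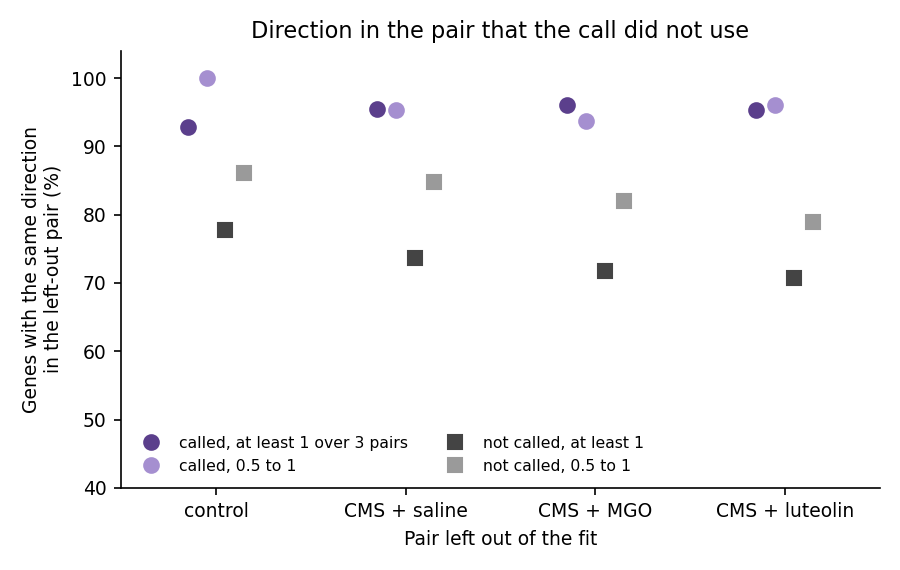
Percent of genes that kept their direction in the pair left out of the limma fit, for called genes (circles) and uncalled genes (squares) of 2 sizes over the other 3 pairs (the y axis starts at 40). Called genes lie at 92.9% and above in every pair, and uncalled genes at 86.1% and below.

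The called genes formed a graded set. Of the 1937 genes, 208 were called in all 4 fits of 3 pairs, 153 in 3 of them, 159 in 2 and 443 in 1. The remaining 974 were called only with all 4 pairs. The 208 genes, 105 higher in PFC and 103 in hippocampus, had a median absolute difference of 1.55. The median was 0.55 for the 974. The median SD over pairs was close in both, at 0.21 and 0.18, so the sets, which the calls define, differed more in size than in spread.

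The treatment pairs were not alike in spread. The robust SD of the differences within a pair (median absolute deviation scaled to an SD) was 0.46 in control, 0.39 in CMS + saline, 0.42 in CMS + MGO and 0.55 in CMS + luteolin. The CMS + luteolin pair was the one farthest from the other 3 in 36.0% of all genes and in 34.2% of called genes, and the other pairs in 19.1% to 24.7% of all genes. Hippocampus was higher in more genes than PFC in control (6480 against 5631), CMS + saline (6794 against 5313) and CMS + luteolin (6629 against 5487). In CMS + MGO it was the reverse, with 5976 against 6142, but this turned to 6427 against 5691 with median-ratio size factors. Across genes, which are not independent replicates, the differences of any 2 pairs correlated with r = 0.30 to 0.42 over 12155 genes, and the pairs share no library.

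Libraries of different tissues mostly differed more than libraries of the same tissue, but the ranges overlapped. Between PFC and hippocampus libraries of the same treatment the robust SD ran from 0.39 to 0.55, and from 0.40 to 0.61 between those of other treatments. Within PFC it ran from 0.19 to 0.33. Within hippocampus it ran from 0.19 to 0.44, where the values over 0.40 all involve the CMS + luteolin library. Most libraries were not closest to their own partner. For only 3 of the 8 was the nearest of the 4 libraries of the other tissue that of the same treatment. Of the total sum of squares over all genes, tissue took 32.4% with 1 degree of freedom, treatment 37.6% with 3 (12.5% each) and the remainder 30.0% with 3 (9.99% each). The tissue share was 35.4% at 1 to under 3 FPKM and 28.6% at 30 to under 100 FPKM. The median tissue share per gene was 29.3%. With 1 library per treatment in each tissue, treatment and rat cannot be told apart.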

How the data were processed

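RNA-seq libraries of PFC and hippocampus under 4 treatments were analysed from the deposited table, whose values are read as the authors' FPKM. Neither header nor labels name a unit. FPKM follows from the values, which are not whole and sum to different totals, and from the tools named in the submitters' processing notes (FastQC 0.11.5, HISAT2 2.0.4, StringTie 1.2.4, build Rnor_6.0). What each tool did, which annotation was used and whether genes were filtered is not given in the sources used here.

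All 8 columns were matched by title. Genes averaging 1 FPKM or more were tested on log2(FPKM + 1) by a two-sided limma fit (version 3.58.1, R 4.3.3, with trend and 3 residual degrees of freedom, Benjamini-Hochberg over 12155 genes, threshold 0.05). Variances were moderated over all genes. Treatment was a block, since the protocol takes both tissues from each rat it names. The deviations from the tissue means correlated within a treatment with r = 0.12 in control rats, 0.17 in CMS + saline, 0.046 in CMS + MGO and 0.11 in CMS + luteolin. The fit was tested on simulated data. Other steps used Python 3.11.15 (scipy 1.17.1, pandas 2.3.3, numpy 2.4.6, matplotlib 3.10.9).

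Depth is not known in reads. Ratios of values below 0.2 FPKM pile up at 1 constant per library pair, at 3.26 to 4.33 times the density nearby, which gave relative depths of 0.855 to 1.34 with control PFC at 1. No counting interval is given.

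The comparison, classes and lists were chosen with earlier results of these data known. The rule for named genes took, where IDs have no symbol, the 2 called genes with the largest difference each way. The 31 gene lists, cell type markers included, were not evaluated, and no sequence is printed, because 0 of 31185 IDs matched the RefSeq table (GRCr8). Alternatives were no block, pseudocounts of 0.1 and 5, other filters, median-ratio size factors, no trend and leaving out each pair.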

Additional observations from a re-analysis of the deposited data

Results flagged for a closer look

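Values of 4 libraries were checked for 1 that lies far from the other 3, in 26 groups, where chance flags about 1 in 20. In 4 of them the hippocampus library of CMS + luteolin was the distant value. Its FPKM sum was 300281, the lowest in hippocampus. Genes called higher in hippocampus held 12.1% of its sum, the highest share there. This share is divided by that lowest sum, so the flags of sum and share are not independent. ENSRNOG00000026953 was at 1.86 FPKM and ENSRNOG00000057703 at 162 FPKM in this library, both the highest in hippocampus.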

How the results depend on the processing

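The 1937 called genes became 1742 to 2391 under the alternatives that keep all 4 pairs, and 2391 with no replicate block (1144 higher in PFC and 1247 in hippocampus), the unpaired fit. Of the 1937, 1775 were also called unpaired, 1888 with median-ratio size factors and 1494 with no filter on low values (20167 genes tested, 1985 called). Leaving out 1 pair gave 243 to 838 called genes, 129 to 442 higher in PFC and 114 to 396 higher in hippocampus, from fewer libraries. By class these counts were 35 to 145 at 1 to under 3 FPKM, 84 to 245 at 3 to under 10, 67 to 246 at 10 to under 30, 38 to 150 at 30 to under 100 and 19 to 52 at 100 and above. Called genes with a difference of at least 1 numbered 224 to 430 without a pair and 212 with a pseudocount of 5, which shrinks every difference. With a pseudocount of 0.1 they numbered 771, against 535 in the main fit. All genes with such a mean difference numbered 1310 with a pseudocount of 0.1, 306 with one of 5 and 497 among genes at 1 FPKM or more in every library. That filter left 161 called genes at 1 to under 3 FPKM, from 1319 tested. With median-ratio size factors, an alternative chosen after seeing the data, the difference in genes per library passed the threshold at both levels in the unpaired exact permutation test (p = 0.0286), at 213 genes for 1 FPKM and -102.5 for 10 FPKM, but at neither by pairs (exact test, p = 0.125, the smallest that 4 pairs allow); the cause was not tested. The 4 named genes kept their direction and call under every alternative that tested them, with limma adjusted p up to 0.0481. Their size depended on the settings. The difference of ENSRNOG00000004179 ran from -6.93 with a pseudocount of 0.1 to -2.73 with one of 5. That of ENSRNOG00000026953 ran from 4.31 to 2.32. The filter of 1 FPKM in every library left out ENSRNOG00000004179. Alternatives for gene lists were not run, since no list could be matched. Depth is not known in reads, and its effect on the low genes was not tested.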
